A study of Mus musculus with 2 samples.

Results

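A set of 7 genes tied to the transcriptional co-activator YAP was followed across the cell classes of the mouse lung. They were 4 members of the CCN family of secreted matrix-associated proteins (Ctgf, Cyr61, Nov and Wisp2), the angiomotin relatives Amotl1 and Amotl2, and the kinase gene Lats2. They were taken by symbol, 7 of 27998 genes in the count matrices, and had been chosen by their KO and WT levels in these same libraries, so their levels are given as a description. The study profiled single cells of lungs from a mouse model of hereditary hemorrhagic telangiectasia type 2, a disease of fragile and malformed vessels. It holds 1 library labelled KO and 1 library labelled WT, both from C57BL/6J mice of 10 to 12 weeks. All lungs were dissociated with dispase and DNase, and cells positive for VE-cadherin and negative for CD45 were sorted before 10x Genomics 3' v3 library construction. The labels name neither the targeted gene nor a promoter, Cre or inducing agent, and the sources used here do not give the number of animals behind each library.

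YAP and its relative TAZ enter the nucleus when the Hippo kinases are inactive, bind TEAD factors on DNA and raise transcription of a set of genes of which Ctgf and Cyr61 are the best known. LATS2 phosphorylates YAP and keeps it out of the nucleus, and the angiomotin proteins AMOTL1 and AMOTL2 bind YAP and hold it at junctions and the cytoskeleton. Lats2 and Amotl2 are themselves YAP targets, so the pathway feeds back on itself. In lung and vessel walls the CCN proteins bind integrins and heparan sulfate, and CTGF is best known for its part in matrix deposition and fibrosis.

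After filters on gene number and mitochondrial RNA, 1315 KO cells and 2729 WT cells remained, with medians of 8646 UMIs (unique molecules) per KO cell and 5435 per WT cell. With 1 library per group there is no replicate check and no test of KO against WT. Intervals are 95% exact intervals that cover counting error only. A gene is called higher or lower in KO when its CPM (UMIs of the gene per 1000000 UMIs of the class) differ at least 1.5-fold with intervals that do not overlap, at a mean of at least 10 CPM. The libraries also differed in sex: 763 KO cells had Y-linked RNA without Xist and 200 had Xist without Y-linked RNA, against 9 and 2399 WT cells, so the KO library holds cells of both sexes and the WT library nearly only female ones. Values by cell sex stand beside the results where they differ. Despite the sort, 45.2% of KO cells and 29.8% of WT cells were alveolar type 2-like (AT2-like) epithelial cells, in which Cdh5, the gene for VE-cadherin, had 4.58 CPM in KO and 9.20 CPM in WT, against 2171 and 2084 CPM in all endothelial-like cells. Acvrl1, the gene mutated in the human disease, had 1269.7 CPM in KO and 1298 CPM in WT general capillary-like (gCap-like) cells, and its level checks no label since the targeted gene is not named. The endothelial cluster 6 held 124 KO cells and 0 WT cells and was left unnamed by the marker rule. Its leading genes were Apln, Igfbp3 and Peg3, and though Apln is an aCap marker, 10 of 11 aCap markers tested stood lower in it than in the other KO endothelial-like cells. The aCap cells are the capillary cells also called aerocytes, which line the gas-exchange surface. Over 10% mitochondrial UMIs were seen in 30.5% of KO and 15.1% of WT barcodes, which were left out, and 12 barcodes occurred in both libraries.

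The genes lie at separate places in the genome (GRCm38, GENCODE M21 annotation). Ctgf (ENSMUSG00000019997, now Ccn2) is at chr10:24595442-24598683 on the plus strand, Cyr61 (ENSMUSG00000028195, now Ccn1) at chr3:145646976-145649981 on the minus strand, Nov (ENSMUSG00000037362, now Ccn3) at chr15:54745702-54754039 and Wisp2 (ENSMUSG00000027656, now Ccn5) at chr2:163820861-163833146, both plus. Amotl1 (ENSMUSG00000013076) spans chr9:14541966-14645056 on the minus strand, Amotl2 (ENSMUSG00000032531) chr9:102716672-102733418 on the plus strand and Lats2 (ENSMUSG00000021959) chr14:57689662-57758388 on the minus strand. Amotl1 overlaps the same-strand gene 4930584E12Rik and Lats2 the same-strand gene Gm49361, so reads in the shared stretch could belong to either. Ctgf has an antisense neighbour, Gm15270, and the sources used here do not say how strand was used in counting.

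RefSeq promoter windows on GRCm38.p6 were matched for 4 of the 7 genes and were read for the 250 bases before each start. Those of Cyr61 and Amotl2 are shown because each holds the core of the TEAD motif, GGAATG, read here on the opposite strand as CATTCC and printed in capitals. The Cyr61 window is chr3:145649986-145650235 on the minus strand, with the core starting 103 bases before the start, and the Amotl2 window is chr9:102717554-102717803 on the plus strand, with the core starting 65 bases before it.
Cyr61: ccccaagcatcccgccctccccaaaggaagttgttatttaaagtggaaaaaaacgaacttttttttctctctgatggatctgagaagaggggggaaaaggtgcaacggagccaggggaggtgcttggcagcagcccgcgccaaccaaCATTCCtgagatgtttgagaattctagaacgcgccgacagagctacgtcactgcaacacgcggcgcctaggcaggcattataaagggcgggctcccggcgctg
Amotl2: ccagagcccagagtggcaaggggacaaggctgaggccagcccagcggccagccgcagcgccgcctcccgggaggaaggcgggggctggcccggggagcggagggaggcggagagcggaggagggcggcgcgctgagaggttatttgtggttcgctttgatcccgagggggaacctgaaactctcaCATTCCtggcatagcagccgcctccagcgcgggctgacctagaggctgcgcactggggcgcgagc
Searched on both strands, GGAATG was in 12.6% of 32851 RefSeq windows of the same length. It was not found in the windows of Amotl1 and Lats2. The AP-1 letters TGANTCA (6.75% of windows) and the CArG box (1.47%) were in none of the members' windows. No motif overlapped another there. A match describes the letters of the window and is not evidence of binding.

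Most Ctgf molecules lay outside the capillary endothelium. Of 3781 Ctgf UMIs in KO cells, 35.2% were in smooth muscle-like cells, which were 4.11% of the cells, 25.2% in adventitial fibroblast-like cells (3.80% of cells) and 21.7% in cluster 6 (9.43% of cells). Of 1300 Ctgf UMIs in WT cells, 25.3% were in alveolar fibroblast-like cells (2.27% of cells), 25.1% in smooth muscle-like cells (3.11%) and 15.8% in gCap-like cells (35.3%). Cyr61, with 877 UMIs in KO and 1735 in WT, was spread over the same kinds of cells: cluster 6 held 24.6%, smooth muscle-like cells 20.1% and adventitial fibroblast-like cells 17.6% of the KO molecules. Smooth muscle-like cells held 26.4%, adventitial fibroblast-like cells 24.7% and alveolar fibroblast-like cells 22.1% of the WT molecules.

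The order of the classes differed between the CCN genes and the Hippo genes. Among KO classes of at least 50 cells, Ctgf stood at 2409.9 CPM in smooth muscle-like cells, then at 1266 in adventitial fibroblast-like cells and 1151 in cluster 6, whose intervals overlap. It then dropped to 138 in aCap-like and 122 in gCap-like cells, which also overlap, and to 10.9 in AT2-like cells. The upper levels leaned on few cells. Without the 5 highest cells of each class, KO Ctgf was 1173 CPM in smooth muscle-like cells, 999 in cluster 6 and 363 in adventitial fibroblast-like cells. Among WT classes Ctgf stood at 728 CPM in alveolar fibroblast-like, 502 in smooth muscle-like, 235 in adventitial fibroblast-like and 161 in venous-like cells, the last 2 overlapping. WT gCap-like cells followed with 54.7 CPM, above aCap-like (35.2), arterial-like (21.9) and leukocyte-like cells (21.1), which overlap in turn, and AT2-like cells (4.14). The KO library had only 13 venous-like and 35 alveolar fibroblast-like cells, which are not ranked.

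Cyr61 in KO was 319 CPM in smooth muscle-like cells and 303 in cluster 6, which overlap, then 205 in adventitial fibroblast-like, 63.8 in aCap-like, 28.4 in gCap-like and 9.98 in AT2-like cells. Without the 5 highest cells of each class, KO Cyr61 was 135 CPM in smooth muscle-like cells, 239 in cluster 6 and 145 in adventitial fibroblast-like cells. Cyr61 in WT was 850 CPM in alveolar fibroblast-like and 705 in smooth muscle-like cells, which overlap, then 538 in adventitial fibroblast-like and 422 in venous-like cells, which also overlap. Arterial-like cells had 131 CPM, and gCap-like (33.8), leukocyte-like (29.5) and aCap-like cells (12.2) overlapped in turn above AT2-like cells (6.35). In WT the venous-like and arterial-like classes thus had higher Cyr61 levels than the capillary classes, but few cells carried them. The 5 highest cells held 63.8% of the Cyr61 molecules of 55 venous-like and 64.3% of those of 68 arterial-like WT cells. The median was 0 UMIs in both classes.

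Nov encodes a CCN protein known from vascular smooth muscle and was highest in smooth muscle-like cells, with 438 CPM in KO and 318 in WT. Adventitial fibroblast-like cells followed with 30.6 CPM in KO and 57.8 in WT, and WT alveolar fibroblast-like cells had 17.7. Cluster 6 had no Nov and no Wisp2 molecule, which allows up to 4.21 CPM of each. Wisp2 encodes a short CCN protein that lacks the family's last domain, and it was found mostly in smooth muscle-like and fibroblast-like cells. It had 444 CPM in smooth muscle-like and 165 in adventitial fibroblast-like KO cells against 3.25 CPM in gCap-like and 1.37 in AT2-like KO cells, and no molecule in aCap-like KO cells, which allows up to 6.18 CPM. In WT it had 222 CPM in smooth muscle-like and 184 in alveolar fibroblast-like cells, which overlap, and 37.7 in adventitial fibroblast-like cells. The 5 highest adventitial fibroblast-like cells held 95.2% of the Wisp2 molecules of that class in KO and 90% in WT. Pericyte-like cells, 21 in KO and 23 in WT, had 2 Wisp2 UMIs in KO and 0 in WT.

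Among classes of at least 50 cells, the Hippo genes had a flatter profile that was highest in endothelium. Smaller classes could stand higher, as WT pericyte-like cells had 195 CPM of Lats2 (123 to 292) and WT cells of fibroblast cluster 14 had 324 CPM of Amotl1 (195 to 506). Amotl1 stood first in gCap-like cells, at 249 CPM in KO and 217 in WT, above aCap-like cells at 130 in KO and 141 in WT, and lowest among the larger KO classes in AT2-like cells at 32.2. In KO, Amotl2 stood at 236 CPM in cluster 6 and 189 in gCap-like cells, which overlap, and at 39.2 in AT2-like cells. In WT, Amotl2 was highest in gCap-like cells at 182 CPM, overlapping venous-like cells at 153, with 53.0 in AT2-like cells. Lats2 levels overlapped along the order from gCap-like cells (165 CPM in KO, 135 in WT) to adventitial fibroblast-like cells (69.1 in KO, 47.7 in WT), and only the step to AT2-like cells (21.2 in KO, 18.0 in WT) was clear of overlap in both libraries. These counts are 1 tag per transcript and are not scaled by length.

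**Figure D1:**
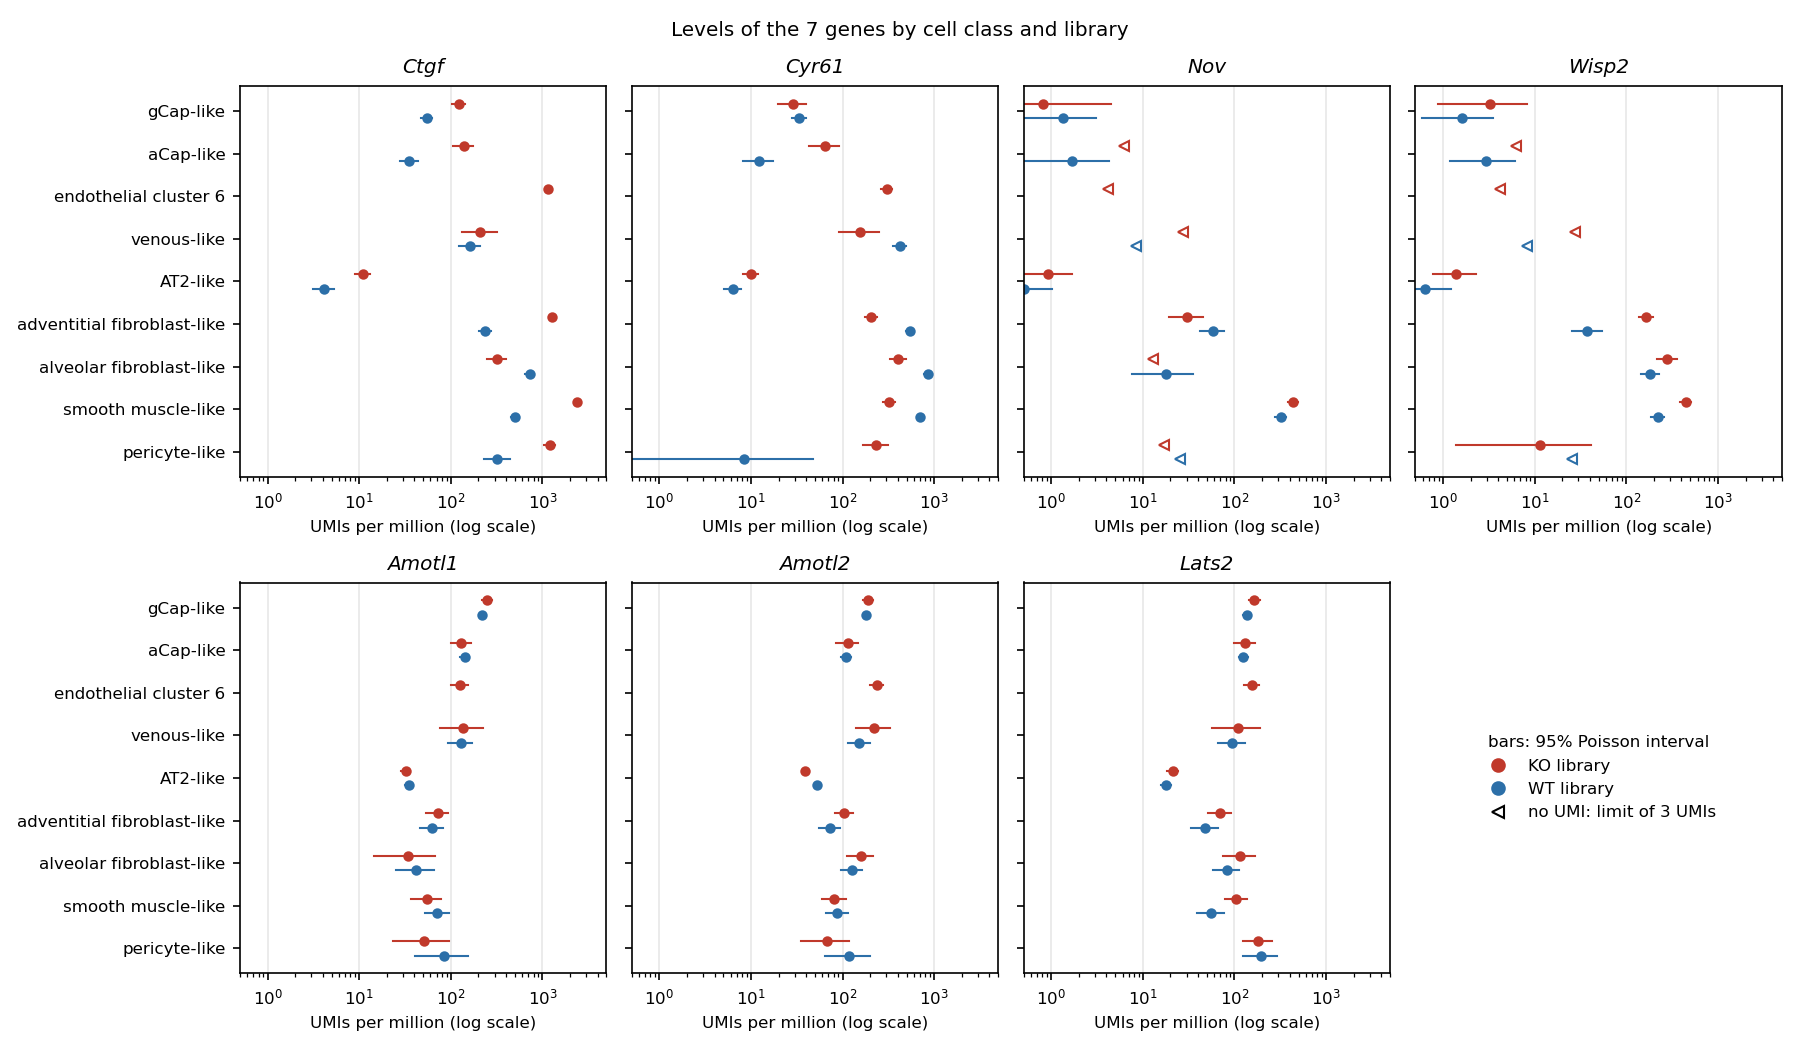
Level of each gene in 9 cell classes, in CPM on a log axis, with KO (red) above WT (blue) in each class, bars for the 95% Poisson interval and open triangles where no molecule was seen, placed at the limit of 3 UMIs. Ctgf ran from 10.9 CPM in AT2-like to 2409.9 CPM in smooth muscle-like KO cells, while Amotl1, Amotl2 and Lats2 spread over a narrower range. Endothelial classes were at the top for Amotl1 and Amotl2. For Lats2 the small pericyte-like class was at the top, at 181 CPM in KO and 195 in WT, with intervals overlapping those of gCap-like cells.

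In gCap-like cells, Ctgf was higher in KO. It had 150 UMIs in 253 KO cells and 206 UMIs in 964 WT cells, or 122 CPM (103 to 143) in KO and 54.7 CPM (47.5 to 62.8) in WT, a ratio of 2.23 (1.79 to 2.76). It was the 1 gene called higher among the 5 members that reached the mean of 10 CPM, and 0 were called lower. Over all 8506 genes tested 1.74% were called higher and 2.88% lower. The ratio was alike in both gCap-like clusters, 2.33 in cluster 1 and 2.10 in cluster 3. After each cell was thinned to 1500 UMIs, 10.4% of KO cells and 5.98% of WT cells held a Ctgf molecule (unthinned 25.7% and 12.9%), against 1.10% of KO and 0.624% of WT AT2-like cells. The median depths were 4974 UMIs in KO and 3845.5 in WT gCap-like cells, and 19627 in KO and 17677 in WT AT2-like cells. The 5 KO cells with most Ctgf carried 30.0% of its molecules, from 7 to 15 UMIs each.

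The rest of the members in gCap-like cells differed little. Cyr61 had 28.4 CPM in KO and 33.8 in WT, a ratio of 0.842 (0.562 to 1.23). Amotl1 had a ratio of 1.14 (0.999 to 1.31), Amotl2 1.04 (0.895 to 1.21) and Lats2 1.22 (1.03 to 1.44). None of the 4 was called, though the interval of Cyr61 reaches below a 1.5-fold decrease. By cell sex, KO cells with Y-linked RNA had 113 CPM of Ctgf against 51.9 in WT cells with Xist, a ratio of 2.19 that sets male against female cells. For female cells on both sides the KO library had only 6 gCap-like cells with Xist, and they had 18 Ctgf UMIs, or 1142 CPM (677 to 1805). Those 6 cells also had 508 CPM of Cyr61 against 31.5 in WT cells with Xist. AT2 markers were lower in KO gCap-like cells in 9 of 10 (2665 CPM summed in KO, 5179 in WT) and erythroid markers in 3 of 3 tested (63.4 in KO, 3338 in WT). Markers of smooth muscle, the class with most Ctgf per UMI in KO, summed to 56.1 CPM in KO and 58.2 in WT gCap-like cells. Fibroblast markers were higher in KO in 1 of 6 tested, and adventitial fibroblast markers in 1 of 1 (545 CPM summed in KO, 374 in WT). Alveolar fibroblast markers were lower in 2 of 4 tested (158 CPM summed in KO, 207 in WT). The part of these RNAs in the Ctgf values was not tested.

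In aCap-like cells both Ctgf and Cyr61 were called higher in KO, but a few cells carried the second. Ctgf had 138 CPM (107 to 175) in KO and 35.2 CPM (28.1 to 43.6) in WT, a ratio of 3.92 (2.80 to 5.46) from 67 and 84 UMIs. Cyr61 had 63.8 CPM (43.4 to 90.6) in KO and 12.2 CPM (8.15 to 17.5) in WT, a ratio of 5.25 (3.06 to 9.02) from 31 and 29 UMIs. These were 2 of the 5 members tested, with 0 lower, where 2.01% of 8389 genes were called higher and 1.86% lower. A single KO cell held 19 of the 31 Cyr61 molecules, and the top 5 cells held 83.9%. Without the 5 cells highest in the gene in each library, Cyr61 had 11.2 CPM in KO and 8.49 in WT and was no longer called. KO cells with Y-linked RNA had 12.6 CPM of Cyr61 against 12.3 in WT cells with Xist. Ctgf without its 5 highest cells was 60.8 CPM in KO and 27.2 in WT and stayed called, and 4 of those 5 KO cells were also among the 5 highest in Cyr61. The 3 Hippo genes had ratios of 0.918 (0.690 to 1.20) for Amotl1, 1.03 (0.756 to 1.38) for Amotl2 and 1.04 (0.780 to 1.37) for Lats2.

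The aCap-like class joins 2 clusters, of which cluster 7 was shallow (median 1097 UMIs), and without it the log2 ratios were 1.97 for Ctgf and 2.51 for Cyr61. Smooth muscle markers were higher in 2 of 3 tested in KO aCap-like cells (94.7 CPM summed in KO and 48.2 in WT), and 1 of 2 lymphatic markers tested was higher. Their part in the Ctgf and Cyr61 values was not tested.

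Over all endothelial-like cells both genes stood higher in KO, and outside cluster 6 Ctgf alone did. Ctgf had 407 CPM in KO and 52.0 in WT (ratio 7.83, 6.93 to 8.85), and Cyr61 had 115 CPM in KO and 51.3 in WT (ratio 2.25, 1.92 to 2.63). These were 2 of 5 members tested called higher, with 0 lower, beside 3.68% higher and 4.92% lower of 8624 genes. Of the KO cells, 60 of 75 with Xist alone were in cluster 6, against 46 of 268 with Y-linked RNA alone. Smooth muscle markers were higher in 2 of 3 tested, Acta2 and Tagln (117.7 CPM summed in KO, 54.5 in WT), and the lymphatic marker Lyve1 in 1 of 2 (2528 summed in KO, 1228 in WT), and their part was not tested. Leaving out cluster 6, Ctgf had 127 CPM in KO (ratio 2.44, 2.07 to 2.89) and was the 1 member called higher, with 0 lower, beside 1.88% higher and 3.38% lower of 8613 genes. Cyr61 then had 44.8 CPM in KO against 51.3 in WT (ratio 0.874, 0.682 to 1.11). This interval includes 1, and the gene was not called. Within KO cells with Y-linked RNA outside cluster 6, Cyr61 was 28.5 CPM against 51.6 in WT cells with Xist, a ratio of 0.553. Both Cyr61 ratios outside cluster 6 also set different mixes of endothelial classes against each other. Venous-like cells held 152 and arterial-like cells 42 of the 350 WT Cyr61 UMIs, in 55 and 68 of 1562 WT cells. The KO library had 13 cells of each of these classes.

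Of the 301 Cyr61 UMIs in KO endothelial-like cells, 216 were in cluster 6. Ctgf was among the genes that led this cluster although the members were kept out of the genes used to cluster, so its comparison with the other 393 KO endothelial-like cells is a description. Ctgf had 1151 CPM (1074 to 1233) in cluster 6 and 127 CPM (112 to 144) in the other KO endothelial-like cells, a ratio of 9.06. Cyr61 had 303 CPM (264 to 346) in cluster 6 and 44.8 CPM (35.8 to 55.4) in the others, a ratio of 6.76. Cluster 6 held 60 cells with Xist alone and 46 with Y-linked RNA alone, and the others 15 and 222. Both ratios therefore also set different mixes of cell sex against each other. At 1500 UMIs, the cells of the cluster with a Ctgf molecule held a Cyr61 molecule in 29 of 84 cases (34.5%), against 8 of 39 (20.5%) without. The high level was spread over the cluster: its 5 highest cells held 19.1% of the Ctgf molecules. Smooth muscle markers stood higher in 2 of 4 tested, Tagln and Myl9 (261 CPM summed in cluster 6, 63.8 in the others). Lymphatic markers stood higher in 2 of 3 tested, Prox1 and Lyve1 (4847 in cluster 6, 1655 in the others). Of the 8 lymphatic markers listed, 3 had no UMI in cluster 6, against 0 in the others. The part of these RNAs was not tested.

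Amotl1 was the member that stood lower in cluster 6, with 126 CPM (101 to 155) against 209 CPM (189 to 231) in the other KO endothelial-like cells, a ratio of 0.603. Amotl2 had 236 CPM in cluster 6 and 169 in the others (ratio 1.39, 1.15 to 1.68), under the 1.5-fold needed, and Lats2 156 and 154. In this contrast 2 of 5 members tested stood higher and 1 lower, where 7.56% of 8386 genes were called higher and 8.29% lower. Against the WT endothelial-like cells, cluster 6 had ratios of 22.1 for Ctgf, 5.91 for Cyr61 and 1.55 for Amotl2, 3 called higher and 0 lower beside 9.19% higher and 12.3% lower of 8522 genes.

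The contrast was also read within cell sex, without a test of the difference between the sexes. In cells with Y-linked RNA, Ctgf had 1107 CPM in cluster 6 and 108 in the other endothelial-like cells, and Amotl1 83.9 and 216 CPM. In cells with Xist, of which 60 were in cluster 6 and 15 outside it, Ctgf had 1077 CPM in cluster 6 and 499.6 outside, and Amotl1 had 167 and 121 CPM, the opposite direction. Cyr61 in cells with Xist had 301 CPM in cluster 6 and 224 outside it, a ratio of 1.34 that was not called. Within cluster 6 the Ctgf intervals of both sexes overlap. Of the dissociation list, 3 of 14 tested stood higher and 5 lower in cluster 6 (3535 CPM summed, against 4157 in the other KO cells).

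At 1500 UMIs per cell, Ctgf was found in 68.3% (59.3 to 76.4) of 123 cluster 6 cells, 9.94% of 342 other KO endothelial-like cells and 6.39% of 1440 WT endothelial-like cells. At least 5 Ctgf molecules were found in 13.8% of cluster 6 cells, 0.292% of the other KO cells and 0 of 1440 WT cells. Cyr61 was found in 30.1%, 4.68% and 3.96% of the same 3 groups, against 0.552% of KO and 1.12% of WT AT2-like cells. Unthinned, 84.7% of cluster 6 cells, 25.4% of other KO and 13.3% of WT endothelial-like cells had Ctgf.

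**Figure D2:**
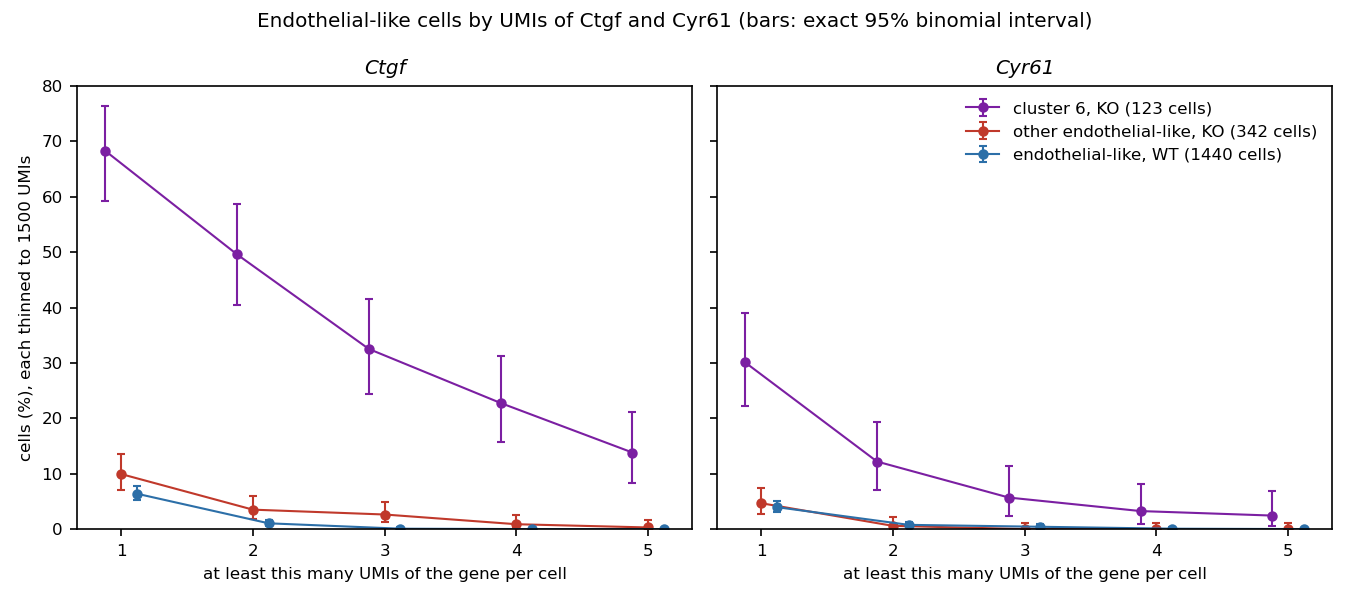
Percent of endothelial-like cells with at least 1 to at least 5 UMIs of Ctgf and of Cyr61 after thinning to 1500 UMIs per cell, for cluster 6 in KO, other KO endothelial-like cells and WT endothelial-like cells, with exact binomial 95% bars. The share with at least 1 Ctgf molecule was 68.3% in cluster 6, 9.94% in the other KO cells and 6.39% in WT.

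AT2-like cells, whose levels of the CCN genes were near 10 CPM or below, had no member called in either direction, 3 members having reached the mean of 10 CPM, beside 1.89% of 7357 genes higher and 2.31% lower. Ctgf had 10.9 CPM in KO and 4.14 in WT, a ratio of 2.64 (1.91 to 3.67) with level intervals apart, and went uncalled because its mean was under 10 CPM. A single KO cell held 41 of its 119 UMIs, and without the 5 highest cells of each library it had 5.46 CPM in KO and 3.09 in WT. Those 5 cells held 14 of the 25 mesothelial marker UMIs of the class in KO, and 9 of 13 in WT. Airway epithelial markers were higher in KO in 3 of 4 tested (4978 CPM summed in KO, 436 in WT) and smooth muscle markers in 1 of 1 (41.3 in KO, 19.5 in WT). Endothelial markers were lower in 4 of 5 tested (144 in KO, 248 in WT). The part of these RNAs was not tested. Cyr61 had 9.98 CPM in KO and 6.35 in WT. Amotl2 had 39.2 CPM in KO and 53.0 in WT, a ratio of 0.740 (0.655 to 0.834), Amotl1 0.928 (0.807 to 1.07) and Lats2 1.17 (0.977 to 1.41). In cells with Xist, Amotl2 was 27.0 CPM in KO and 52.5 in WT and was called lower.

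In adventitial fibroblast-like cells the CCN genes parted. Ctgf had 1266 CPM (1187 to 1349) in KO and 235 CPM (202 to 271) in WT, a ratio of 5.39 (4.60 to 6.34), from 50 KO and 67 WT cells. Wisp2 had 165 CPM (137 to 197) in KO and 37.7 CPM (25.4 to 53.8) in WT, a ratio of 4.37 (2.92 to 6.75). Cyr61 was lower, with 205 CPM (174 to 240) in KO and 538 CPM (488 to 591) in WT, a ratio of 0.381 (0.315 to 0.459). Nov had 30.6 CPM in KO and 57.8 in WT (ratio 0.529, 0.306 to 0.891), its level intervals overlapping. Amotl1, Amotl2 and Lats2 had ratios of 1.17, 1.42 and 1.45 and were not called. Of 7 members tested, 2 were called higher and 1 lower, beside 2.73% and 3.75% of 8243 genes.

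Few cells carried the higher values. The 5 KO cells with most Ctgf, with 72 to 217 UMIs each, held 75.0% of its molecules in this class, and the same 5 cells were the 5 highest in Wisp2, of which they held 95.2%. Without the 5 highest cells of each library Ctgf had 363 CPM in KO and 111 in WT and stayed called, whereas Wisp2 had 9.15 CPM in KO and 4.14 in WT and was not. Of these 5 cells, 3 had Xist and 2 Y-linked RNA. By sex, Ctgf had 2753 CPM in KO cells with Xist and 967 CPM in KO cells with Y-linked RNA, against 238 CPM in WT cells with Xist. Mesothelial markers were higher in KO in 6 of 6 genes (362 CPM summed in KO, 3.77 in WT, where 5 of the 6 were at 0), in 3 KO cells, none of them among those 5. Erythroid markers were higher in 3 of 3 tested (2344 CPM summed in KO, 64.1 in WT), and their part was not tested. Without the 3 mesothelial marker cells the log2 ratios were 2.55 for Ctgf, 2.28 for Wisp2 and -1.38 for Cyr61. At 1500 UMIs, Ctgf was found in 32.7% of KO and 14.9% of WT cells, and Cyr61 in 22.4% of KO and 38.8% of WT cells.

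Smooth muscle-like cells had the highest Ctgf of the KO library and 4 members called. Ctgf had 2409.9 CPM (2282 to 2543) in KO and 502 CPM (449 to 559) in WT, a ratio of 4.81 (4.25 to 5.44), from 54 KO and 85 WT cells. Wisp2 had 444 CPM (389.8 to 503) in KO and 222 CPM (187 to 261) in WT, a ratio of 2.00 (1.62 to 2.48). Lats2 had 105 CPM (79.7 to 136) in KO and 55.4 CPM (38.8 to 76.7) in WT, a ratio of 1.90 (1.23 to 2.96) from 58 and 36 UMIs. Cyr61 had 319 CPM (273 to 369) in KO and 705 CPM (642 to 772) in WT, a ratio of 0.452 (0.378 to 0.539). Nov had 438 CPM in KO and 318 in WT (ratio 1.38, 1.14 to 1.66), under 1.5-fold. Amotl1 and Amotl2 had ratios of 0.768 and 0.929. Of 7 members tested, 3 were called higher and 1 lower, beside 2.02% and 3.86% of 8335 genes.

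The 5 KO cells highest in Ctgf held 60.6% of the Ctgf molecules of this class, 1 of them 351. Without the 5 highest cells of each library Ctgf had 1173 CPM in KO and 278 in WT. By cell sex, KO cells with Xist had 5136 CPM of Ctgf and KO cells with Y-linked RNA 1312 CPM, beside 512 CPM in WT cells with Xist. Of the 5 KO cells highest in Ctgf, 3 were among the 11 with Xist. Cyr61 was 602 CPM in 11 KO cells with Xist, 207 CPM in 33 KO cells with Y-linked RNA and 728 CPM in WT cells with Xist, so that with Xist in both the ratio was 0.827 and was not called. Wisp2 in KO cells with Y-linked RNA was 331 CPM against 226 in WT cells with Xist, a ratio of 1.47 that was not called. Wisp2 was also not called under a stricter cell filter of 1000 genes and 5% mitochondrial UMIs (log2 ratio 0.42) or with thinned cells (0.48). The call of Lats2 was lost in 6 of 13 other settings.

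**Figure D3:**
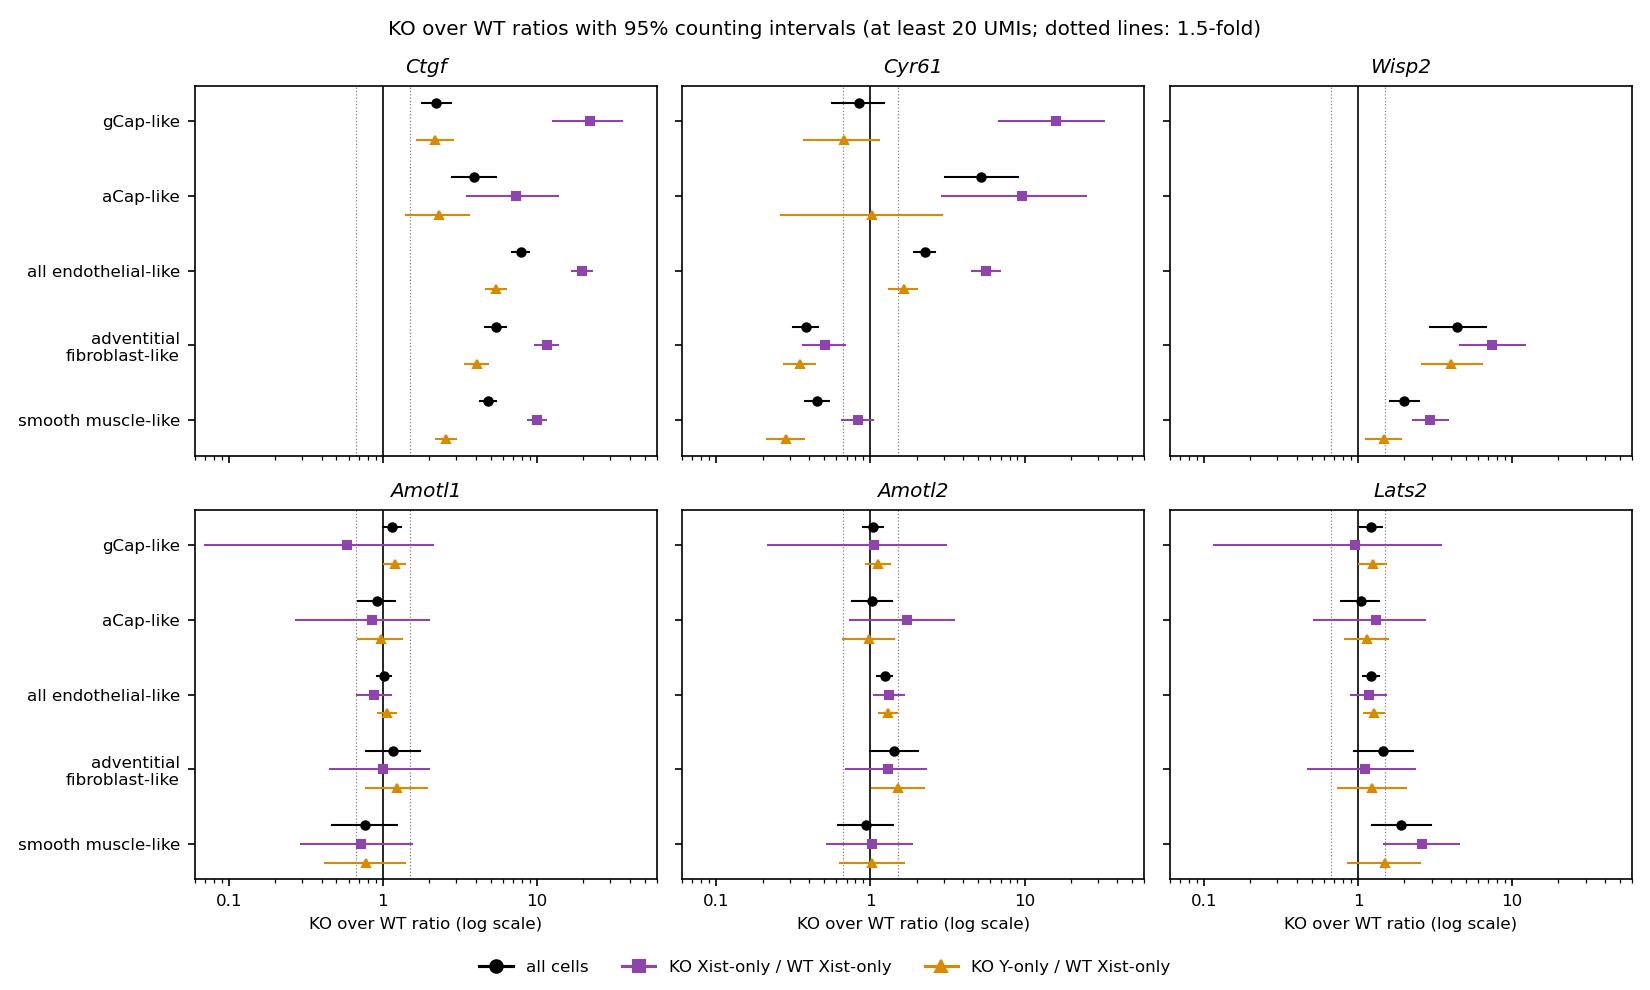
KO over WT ratio of CPM, on a log axis, for 6 of the genes in 5 sets of cells, over all cells (black), KO and WT cells with Xist (purple) and KO cells with Y-linked RNA over WT cells with Xist (orange), with 95% exact intervals and dotted lines at 1.5-fold. Ctgf lay above the line in each set over all cells, from 2.23 in gCap-like to 7.83 in all endothelial-like cells, while Cyr61 lay at 5.25 in aCap-like and at 0.381 in adventitial fibroblast-like cells.

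The makeup of the CCN molecules differed between the libraries in smooth muscle-like and adventitial fibroblast-like cells, where 5 KO cells held 60.6% and 75.0% of the Ctgf molecules. In smooth muscle-like cells Ctgf was 65.2% of 2040 CCN UMIs in KO and 28.3% of 1152 in WT, while Cyr61 was 8.63% in KO and 39.8% in WT. In adventitial fibroblast-like cells Ctgf was 74.4% of 1279 UMIs in KO and 26.5% of 706 in WT, and Cyr61 12.0% in KO and 60.6% in WT. In gCap-like cells Ctgf was 78.9% of 190 UMIs in KO and 59.5% of 346 in WT. In aCap-like cells it was 67.7% in KO and 66.1% in WT. In the smaller classes the Ctgf share was 30.2% in KO and 40.9% in WT alveolar fibroblast-like cells, and 70.0% in KO and 74.5% in WT pericyte-like cells. Cluster 6 had 79.0% Ctgf and 20.8% Cyr61 of 1039 UMIs. Wisp1, a family member that was not among the 7, had 83.3 CPM in KO and 26.2 in WT smooth muscle-like cells and was called higher.

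**Figure D4:**
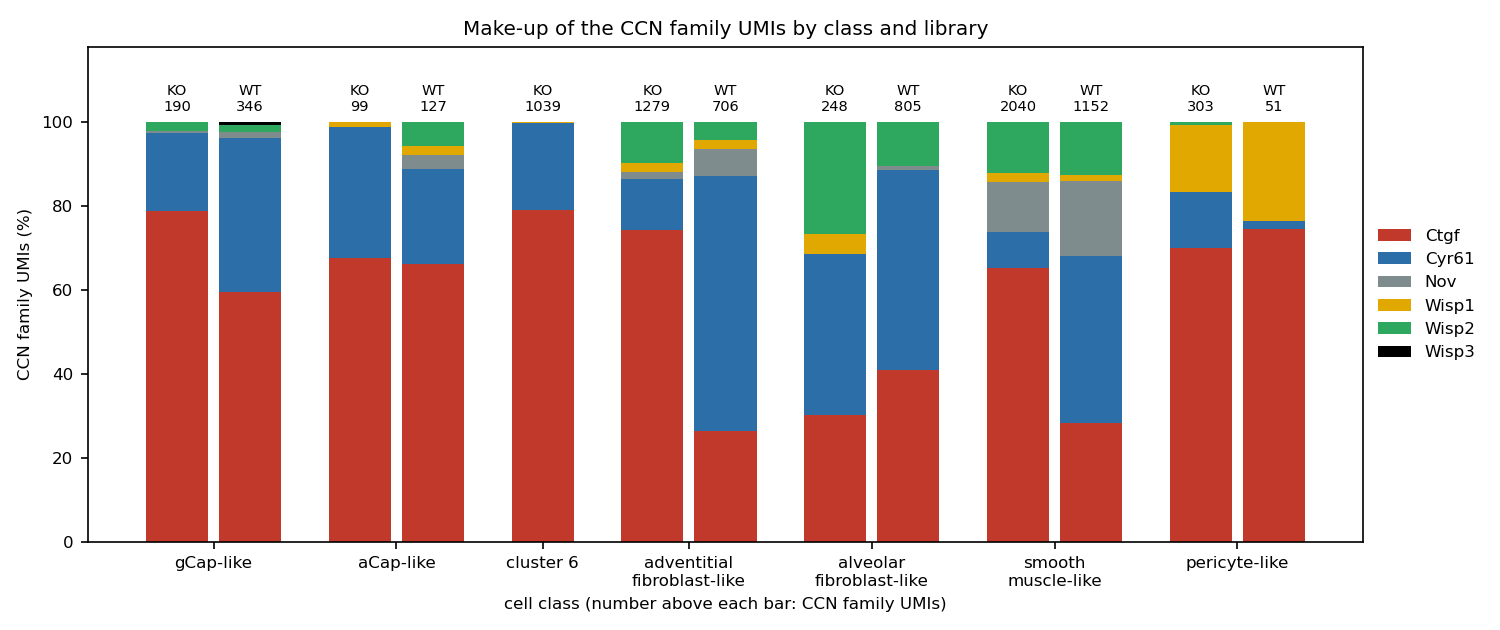
Percent of all CCN family molecules given by each gene, as stacked bars for each class and library, KO left of WT. Ctgf was 65.2% in KO and 28.3% in WT smooth muscle-like cells, and 74.4% in KO and 26.5% in WT adventitial fibroblast-like cells.

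Genes of the early response to dissociation were read beside Cyr61. Among the 5 classes compared their median log2 ratio was lowest in the 2 in which Cyr61 was lower, at -0.995 in smooth muscle-like and -0.96 in adventitial fibroblast-like cells. Of the 15 listed, 13 were lower and 0 higher in smooth muscle-like cells (3531 CPM summed in KO, 6856 in WT) and 12 lower and 0 higher in adventitial fibroblast-like cells (4746 in KO, 8523 in WT). In gCap-like cells 6 of 14 tested were lower and 0 higher, Egr1 having 15.4 CPM in KO and 182 in WT, and Fos 11.4 in KO and 77.1 in WT. In aCap-like cells, where Cyr61 was called higher, 4 of 13 were lower and 1 higher (4219 CPM summed in KO, 4390 in WT). In AT2-like cells 5 of 15 were lower and 1 higher. Other contrasts paired a low list with higher Cyr61. Over all endothelial-like cells, where Cyr61 was called higher, 8 of 15 were lower and 0 higher (median -0.60). Cyr61 was also called higher in cluster 6 against WT endothelial-like cells, where 9 of 15 were lower and 0 higher (median -1.34). Cyr61 is itself known as an immediate early gene, and the part of dissociation in its values was not tested. Endothelial markers were lower in KO in 9 of 12 tested in smooth muscle-like cells (215 CPM summed in KO, 901 in WT) and AT2 markers in 6 of 10 (1267 in KO, 2901 in WT), fibroblast markers were higher in 4 and lower in 1 of 7 tested (9339 in KO, 6961 in WT), and their part was not tested.

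The conserved YAP target signature, 22 genes that include Ctgf, Cyr61, Amotl2 and Lats2, shares those members, which were chosen by their levels in these libraries. Without them 1 of 6 genes tested was higher in gCap-like, 3 of 7 in aCap-like, 2 of 7 in AT2-like, 3 of 13 in adventitial fibroblast-like and 2 of 16 in smooth muscle-like cells, with 0 lower in each. In cluster 6, set against the remaining KO endothelial-like cells, it was 5 of 9, with 0 lower. With the members included, in gCap-like cells 2 of 10 tested were higher and 0 lower: Ctgf, and Igfbp3, which encodes a binding protein of insulin-like growth factors, with 34.9 CPM in KO and 19.4 in WT. The list's median log2 ratio was 0.17, beside -0.02 over all genes. In aCap-like cells 5 of 11 were higher and 0 lower, with Tgfb2, a TGF-beta ligand gene, at 43.2 CPM in KO and 3.36 in WT, the kinase gene Nuak2 at 39.1 in KO and 10.1 in WT, and a median of 1.10 beside -0.04. In AT2-like cells 2 of 9 were higher and 0 lower, F3, the gene for tissue factor, at 75.5 CPM in KO and 22.2 in WT and the phosphatase gene Ptpn14 at 23.8 in KO and 14.1 in WT, and the median was -0.03 beside -0.004 over all genes.

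The counts and medians of the signature that follow also include the members. In adventitial fibroblast-like cells 4 of 17 genes of the signature were higher and 1, Cyr61, lower, with a median of 0.40 beside -0.11. Without the members that median was 0.23. F3 had 314 CPM in KO and 137 in WT, Igfbp3 605 in KO and 402 in WT, and Fjx1 31.9 in KO and 2.51 in WT. In smooth muscle-like cells 4 of 20 were higher and 1, Cyr61, lower, with Igfbp3 at 226 CPM in KO and 143 in WT and Tgfb2 at 333 in KO and 222 in WT. The median there was 0.10 beside -0.12 over all genes. In cluster 6, set against the remaining KO endothelial-like cells, 7 of 13 stood higher and 0 lower, with a median of 1.25 beside -0.07. Igfbp3 had 1416 CPM in cluster 6 and 36.9 in the others, Tgfb2 203 and 31.1, and Crim1, which encodes a membrane protein that binds growth factors, 616 and 256.

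The Hippo pathway components, 23 genes that run from the kinases to the TEAD factors, include the members Amotl1, Amotl2 and Lats2. In gCap-like and in AT2-like cells 0 of 19 tested were higher and 0 lower. In aCap-like cells 1 of 19 was higher, Wwtr1, which encodes TAZ, with 128 CPM in KO and 77.6 in WT. In adventitial fibroblast-like cells 1 of 20, Frmd6, was lower (108 CPM in KO, 186 in WT), and in smooth muscle-like cells Lats2 was higher and Frmd6 lower (30.8 CPM in KO, 92.3 in WT) among 20. Frmd6 encodes a membrane protein upstream of the Hippo kinases. Cluster 6 had Wwtr1 at 279 CPM against 170 in the other KO endothelial-like cells and Tead1, a TEAD factor gene, at 77.1 against 23.7. It was lower in Yap1 (40.7 against 70.7), in the Hippo kinase gene Stk4 (50.5 against 117) and in Amotl1, so that 2 of 19 stood higher and 3 lower. Over all genes 7.56% stood higher and 8.29% lower in that contrast. The all-gene shares were 2.01% higher in aCap-like, 3.75% lower in adventitial fibroblast-like, and 2.02% higher and 3.86% lower in smooth muscle-like cells. Without the members, 2 of 16 stood higher and 2 lower in cluster 6, and 0 of 17 higher and 1 lower in smooth muscle-like cells.

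Receptors of CCN proteins made up a list of 10 genes. In gCap-like and aCap-like cells 0 of 7 tested were called in either direction. In AT2-like cells 1 of 6, Notch1, whose receptor is known to bind NOV, was lower (21.0 CPM in KO, 32.6 in WT). Smooth muscle-like cells had 2 of 10 higher, Itga5, the alpha subunit of the fibronectin receptor, with 186 CPM in KO and 83.1 in WT, and Sdc4, a heparan sulfate proteoglycan gene, with 482 in KO and 163 in WT. Adventitial fibroblast-like cells had Sdc4 higher (257 CPM in KO, 146 in WT) and the integrin gene Itgb5 lower (110 in KO, 196 in WT) among 8. In cluster 6, Sdc4 stood higher (57.5 CPM against 24.8), and Itgb5 (4.21 against 83.9), Lrp6 (63.1 against 125) and Notch1 (271 against 473) stood lower than in the other KO endothelial-like cells.

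The genes most like each member were read from Pearson's r of log2(CPM + 10) over 15 combinations of class and library, which share 2 libraries and are not independent. They were Fkbp10 (0.898), Lama4 (0.893) and Eif4ebp1 (0.891) for Ctgf and Bgn (0.929), Lama4 (0.924) and Gstm2 (0.911) for Cyr61. For Nov they were Rgs7bp (0.992), Ntrk3 (0.988) and Adam33 (0.984), and for Wisp2 Heyl (0.975), Ndrg2 (0.970) and Prdm6 (0.970). Amotl1 was followed by Hist1h1e (0.961), Mtmr2 (0.950) and Exosc10 (0.949), Amotl2 by Cul1 (0.958), Akap2 (0.933) and Krit1 (0.931), and Lats2 by Sh3glb1 (0.944), Zeb1 (0.932) and Lrrc8a (0.931).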

How the data were processed

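Cells of dissociated mouse lung, sorted for VE-cadherin and against CD45, were profiled with 10x Genomics 3' v3 chemistry in 1 KO and 1 WT library. The authors deposited unscaled UMI counts as a gene by barcode matrix for each library, and the submitters' processing notes name Cell Ranger 3.0.1 and the build mm10. Other steps are not given in the sources used here. They list 2196 KO barcodes with 17864581 UMIs and 3482 WT barcodes with 25667220 UMIs. Of the gene IDs, 27645 of 27998 (98.7%) are in GENCODE M21, used for coordinates.

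Barcodes passed with 500 genes or more and a mitochondrial share of 10% or less, 1326 in KO and 2745 in WT. Scrublet, run per library in scanpy 1.11.5 (Python 3.11.15, anndata 0.12.19, numpy 2.4.6, scipy 1.17.1), called 11 KO doublets (0.830%) and 16 WT doublets (0.583%), which were removed. The cells were clustered with 30 principal components, 20 neighbors and Leiden resolution 1 (leidenalg 0.10.2, python-igraph 0.11.9). The members, the genes of the lists and genes differing between libraries within first-step classes were kept out: 523 of 2000 variable genes were left out and 1477 used, giving 19 clusters. Clusters were named from fixed cell type markers (157 of 158 are in the files). A name required 3 of its markers, each detected in 10% of the cluster's cells and 2-fold over the middle cluster, and its markers had to be present among the top 10 genes and not outnumbered there by those of another name. Cells were typed by sex from Xist and Y-linked UMIs.

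Within each class and library, UMIs were added up and divided by the class total (CPM), with exact Poisson intervals. Ratios of KO over WT have exact conditional binomial intervals, and shares have exact Clopper-Pearson intervals after thinning each cell to 1500 UMIs, which left out 120 KO and 171 WT cells. Intervals are at 95% and cover counting error only, and a sum of 0 has a limit of 3 UMIs. Calls over all cells were made in classes of at least 50 cells per library, and smaller classes have levels only. The splits by cell sex apply the same rule to smaller sets, down to 6 KO cells. All 7 members are named in every comparison. From each list, counts and up to 4 of the members differing most are named, and for each member the 3 genes of highest Pearson's r among genes with at least 20 CPM in 1 combination. The members and lists were chosen with earlier results of these data known.

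The call rule was tested on simulated counts: in gCap-like KO over WT it recovered 98% of genes changed 2-fold upward and 68% of those lowered to 0.5, and called 0.442% of 8377 unchanged genes. In smooth muscle-like KO over WT these were 62%, 42% and 0.405% of 8140. The simulated class sums were Poisson draws and did not hold the concentration of molecules in few cells seen in the data. The shares therefore cover counting error only and are not error rates of the calls reported here. Alternatives changed the cell filters, depth, scaling, floor, clustering, doublets, the highest cells and cell sex.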

Additional observations from a re-analysis of the deposited data

Results flagged for a closer look

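Cyr61 was called in opposite directions in different classes under the same KO over WT contrast. Its ratio was 5.25 in aCap-like cells, 0.381 in adventitial fibroblast-like cells and 0.452 in smooth muscle-like cells. The difference between the classes was not tested. In the aCap-like class a single KO cell held 19 of 31 Cyr61 UMIs. The dissociation list was lower in 13 of 15 genes in smooth muscle-like cells and in 12 of 15 in adventitial fibroblast-like cells, against 4 of 13 in aCap-like cells. It was also lower in 9 of 15 in cluster 6 against WT endothelial-like cells, where Cyr61 was called higher. The part of dissociation was not tested.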

How the results depend on the processing

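No paired analysis was possible because each group is 1 library. Ctgf stayed called in every alternative run, with log2 ratios of 0.98 to 4.46 in gCap-like (the highest from 6 KO cells with Xist), 1.16 to 2.87 in aCap-like, 1.71 to 3.53 in adventitial fibroblast-like and 1.36 to 3.33 in smooth muscle-like cells. The range was 1.29 to 4.29 in all endothelial-like cells and 1.11 to 3.55 for cluster 6 over the other KO endothelial-like cells. Of the alternative counts of called members, 173 were within 1.5 times the count reported and 15 were not. The number higher in gCap-like cells became 2 with Xist in both libraries. In aCap-like cells it became 1 with thinned cells, with KO cells with Y-linked RNA and without the 5 highest cells, and in adventitial fibroblast-like cells 1 with thinned cells and without the 5 highest cells. In AT2-like cells it became 2 with the mean over cells and with no floor, and 1 was lower with Xist in both. In smooth muscle-like cells the number higher became 1 at 1000 genes and 5% mitochondrial UMIs, and 0 were lower with Xist in both. For all endothelial-like cells it became 1 outside cluster 6, and for cluster 6 against other KO cells 1 with Xist, with 0 lower with Xist and with thinned cells. The log2 ratio changed sign, without being called, in 2 cases. It became 0.47 for Amotl1 in cluster 6 cells with Xist (-0.73 over all cells) and -0.19 for Cyr61 in endothelial-like cells outside cluster 6 (1.17 with it). The Amotl1 sign change rests on 60 cells with Xist in cluster 6 and 15 outside it. The Cyr61 sign change came with leaving out cluster 6, which held 216 of the 301 Cyr61 UMIs of KO endothelial-like cells. In that setting 393 KO and 1562 WT cells remained. The cause of either was not tested. Median-of-ratios scaling moved the median of all genes by -0.0869 in smooth muscle-like cells and by less in the other comparisons. Members under 10 CPM and classes under 50 cells set the limit of depth.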

Other observations

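Classes of fewer than 50 cells in either library have levels only, and in them Ctgf and Cyr61 did not follow a single direction. In pericyte-like cells (21 KO, 23 WT), Ctgf had 1198 CPM (1042 to 1371) in KO and 322 CPM (228 to 442) in WT, and Cyr61 had 41 UMIs in KO and 1 UMI in WT. In alveolar fibroblast-like cells (35 KO, 62 WT) the direction was the opposite, with Ctgf at 319 CPM (251 to 399.9) in KO and 728 CPM (651 to 811) in WT and Cyr61 at 404 CPM (327 to 494) in KO and 849.5 CPM (767 to 939) in WT. Wisp2 in those fibroblasts had 281 CPM (217 to 357) in KO and 184 CPM (146 to 228) in WT.

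Venous-like cells (13 KO, 55 WT) had 210.5 CPM of Ctgf in KO and 161 in WT, with overlapping intervals, and 156 CPM (90.6 to 249) of Cyr61 in KO against 422 CPM (357 to 494) in WT. Arterial-like cells (13 KO, 68 WT) had 2 Cyr61 UMIs in KO and 42 in WT. Lymphatic-like cells (7 KO, 3 WT) had 8 Ctgf UMIs in KO and 0 in WT. In pericyte-like cells Wisp1 gave 15.8% of the CCN molecules in KO and 23.5% in WT.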
